A study of Homo sapiens with 6 samples.

Results

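The 1160 islands of HA-METTL14 ChIP-seq on chromosome 19 were described, 670 of the 67802 candidate islands from DRB-treated HepG2 cells and 490 of the 38696 from untreated HepG2 cells. They were all islands on that chromosome in the 2 deposited tables of candidate islands, chosen by position and not by any measured value. An island is a run of windows with an excess of reads, as called by the program SICER. HepG2 is a human hepatocellular carcinoma line, and every library came from HepG2 cells stably transduced with a lentiviral METTL14 that carried an HA tag at its N terminus and EGFP at its C terminus, selected with puromycin and sorted for high GFP. The DRB group had 1 immunoprecipitation (IP) library with an HA antibody and 1 input library from cells given 100 µM DRB for 3 h, and the untreated group had 2 IP and 2 input libraries. The tagged protein was overexpressed, so these islands describe the tagged METTL14 and not the endogenous one. An HA immunoprecipitation from cells without the tag was not analysed here.

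METTL14 binds RNA and pairs with the catalytic subunit METTL3 to methylate adenosines of messenger RNA. DRB blocks transcription elongation by inhibiting the kinase CDK9. Human chromosome 19 is densely packed with genes, and it carries large tandem clusters of genes for KRAB zinc finger proteins, which bind DNA and repress transposable elements. Those clusters are known for the repressive mark H3K9me3 over their gene bodies. In the RefSeq gene table of GRCh38.p14, 1451 of 20056 protein-coding genes (7.23%) and 250 of 517 protein-coding genes with a ZNF number (48.4%) are on this chromosome. The files are on hg19, and no gene annotation of hg19 was used here, so islands are named by their hg19 positions. The zinc finger clusters are taken as 19.8 to 24.6 Mb (cluster 1), 36.5 to 38.5 Mb (cluster 2) and 52.3 to 58.6 Mb (cluster 3), and an island belongs to the one that holds its midpoint.

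Each island has 1 IP and 1 input read count per condition, with the untreated replicates already pooled. The chromosome 19 candidates held 19718 IP and 15146 input reads with DRB, and 113211 IP and 105881 input reads in untreated cells. Fold is the ratio of IP to input reads after multiplication by a constant that the authors used to scale the libraries, 0.861 for DRB and 1.07 for untreated cells. With no separate replicates, the 95% intervals are exact and reflect counting error alone, and tests compare these libraries and not cultures.

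Candidate islands were frequent along both arms and scarce around the centromere. With DRB there were 11.3 candidates per Mb, and in untreated cells 8.29 per Mb. In 5 Mb bins counted from the short-arm end, DRB density was highest in the tenth bin (45 to 50 Mb) with 18.4 per Mb, and the untreated density peaked in the same bin with 16 per Mb. The lowest density in both conditions was in the fifth bin (20 to 25 Mb), with 1.40 per Mb with DRB and 0.80 in untreated cells. That bin lies mostly in zinc finger cluster 1. The longest stretch without a candidate ran over the centromere, from 24552601 to 27731800 with DRB (3.18 Mb) and from 24545801 to 27731800 in untreated cells (3.19 Mb). The next longest lay inside cluster 1, from 21592401 to 24183600 with DRB (2.59 Mb) and from 21268001 to 24183600 in untreated cells (2.92 Mb). The median gap between neighbouring candidates was 33.0 kb with DRB and 41.0 kb in untreated cells.

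**Figure D1:**
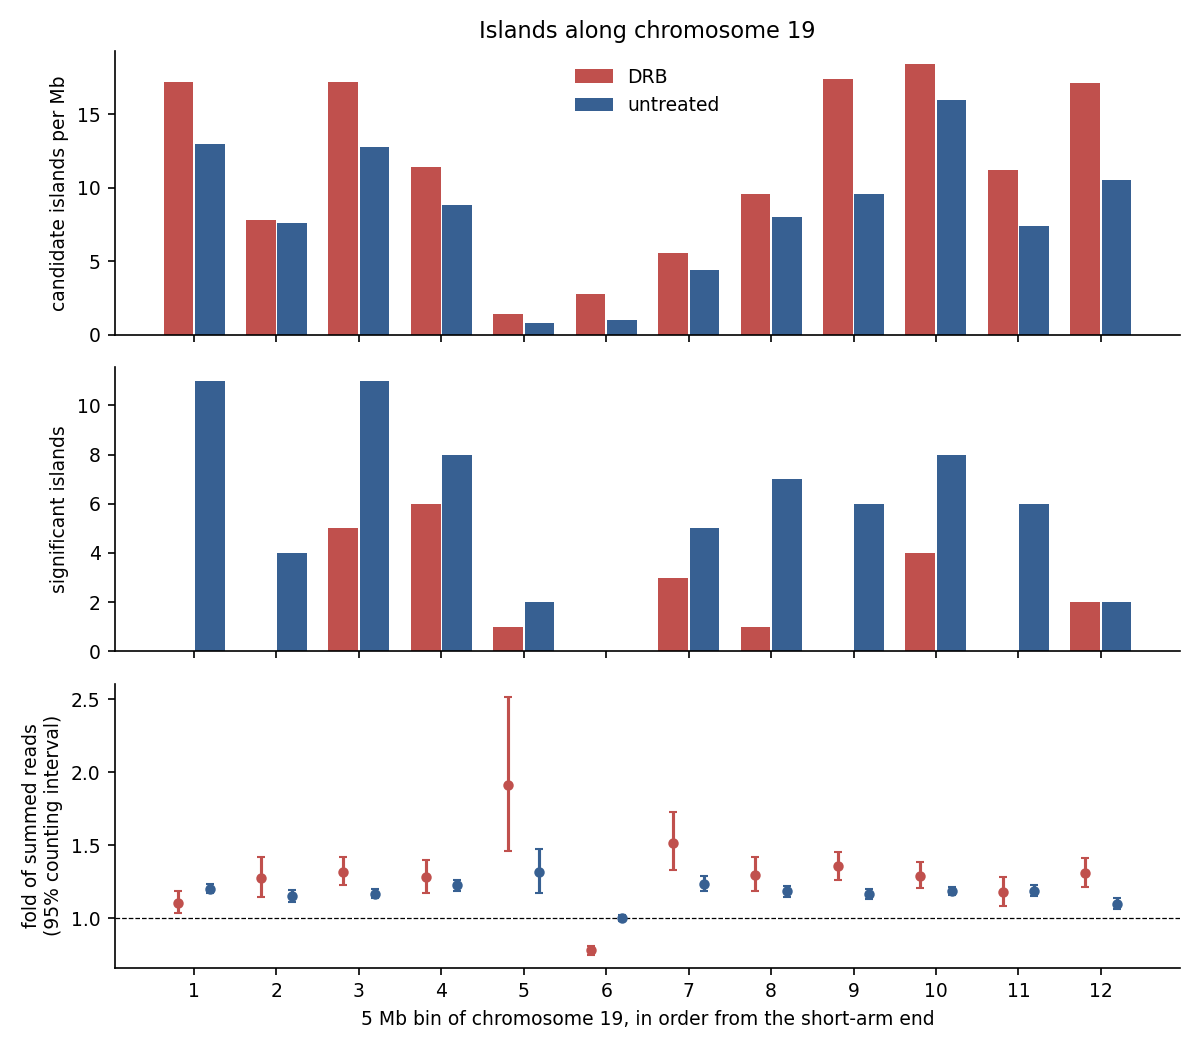
Candidate islands per Mb (top), number of significant islands (middle) and fold of the summed IP and input reads with its exact 95% counting interval (bottom) in 5 Mb bins of chromosome 19, DRB left of untreated in each bin. Candidates are sparsest in bin 5 in both conditions, and bin 6 has the lowest fold, 0.78 with DRB and 1.00 in untreated cells.

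A pair of islands beside the centromere held a large part of the reads and was not enriched. The island starting at 27731801 had 3950 IP and 4475 input reads with DRB, a fold of 0.760 (0.728 to 0.793), and 17446 IP and 18742 input reads in untreated cells, a fold of 0.999 (0.978 to 1.02). Its input density was 72.7 times the median of all candidates with DRB and 41.7 times in untreated cells. Together with the island starting at 27789201 it took 30.7% of the input reads of the chromosome 19 islands with DRB and 18.3% in untreated cells. Sums over the chromosome moved when this pair was left out, to a fold of 1.28 (1.249 to 1.31) with DRB, against 1.12 with it, and to 1.18 (1.17 to 1.19) in untreated cells, against 1.15 with it.

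With DRB, 22 of the 670 islands (3.28%, interval 2.07 to 4.93) were on the deposited list of significant islands, which holds islands with a false discovery rate (FDR) under 1e-04. The background was 4.76% of all DRB candidates called, and chromosome 19 ranked 22 of 24 chromosomes in this share. The 22 islands rested on few reads, with 12 to 49 IP reads against 1 to 21 input reads, and 4 of them were a single 200 bp window. Significant DRB islands were found in 7 of the 12 bins, with 5 in the third and 6 in the fourth (10 to 20 Mb).

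The highest DRB fold, 11.2 at 10370401 to 10370600, came from 13 IP reads and 1 input read and had an interval of 1.68 to 475.5. The islands at 10075601 to 10076600 and at 47693001 to 47693200 each had 14 IP and 2 input reads, 6.02-fold (1.38 to 54.6). Those at 16599401 to 16599600 and 32838801 to 32839000 each had 12 IP and 2 input reads, 5.16-fold (1.15 to 47.5). The ends of these intervals lie far apart, and the folds are imprecise. The deepest islands of the list were at 48971601 to 48973200, with 49 IP and 21 input reads (2.01-fold, 1.18 to 3.53), and at 16018601 to 16020800, with 46 IP and 15 input reads (2.64-fold, 1.45 to 5.09); this pair was picked out after its values were seen.

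A test that also counts the sampling error of the input called no DRB island of the chromosome above input. This exact binomial test, adjusted over all islands of the table, called 0 of 670 at an adjusted p under 0.05, which allows a called share of up to 0.448%. At this depth even the 11.2-fold island, with 13 IP reads and 1 input read, did not pass (exact binomial test, adjusted p = 0.353). The 0 therefore does not limit the share of islands that are above input. The background in that direction was 0.00885% of all DRB candidates, and 0.00442% at 1e-04, where chromosome 19 also had 0. At a stricter FDR of 1e-05 the authors' values kept 7 of the 22 (background 1.47%). At an unadjusted p under 0.05 the test called 72 of the 670 in either direction, or 10.7%, against a background of 12.9%. All 22 islands of the deposited list were among those with an unadjusted p under 0.05. In the opposite direction 1 island was called below input at an adjusted p under 0.05, the one at 27731801 (exact binomial test, adjusted p = 1.58e-32), where the background was 0.0826%.

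In untreated cells the significant islands were more numerous and better covered. The deposited list held 70 of the 490 (14.3%, interval 11.3 to 17.7), where the background was 5.1% of all untreated candidates. Only chromosomes X and Y, with 49 and 37 candidates, had a higher share among the 24. Chromosomes 21 (13.1%, interval 8.76 to 18.65) and 22 (12.6%, interval 8.67 to 17.5) had shares whose intervals overlap that of chromosome 19. The exact binomial test called the same 70 above input at an adjusted p under 0.05 (background 5.17%), and 25 at 1e-04 (background 0.7%). At an FDR under 1e-05 there were 52 (background 3.15%). The median fold of the 70 was 1.52 (highest 2.84), with medians of 269 IP and 190 input reads. They lay in 11 of the 12 bins, with 11 each at 0 to 5 Mb and at 10 to 15 Mb and none at 25 to 30 Mb.

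The steepest and best supported untreated island outside the clusters was at 18388801 to 18393400, with 658 IP and 276 input reads, 2.56-fold (2.22 to 2.96; exact binomial test, adjusted p = 1.75e-39). Similar folds were found at 41426601 to 41427800, with 170 IP and 72 input reads (2.53-fold, 1.91 to 3.39), and at 10222601 to 10226600, with 253 and 123 (2.21-fold, 1.77 to 2.76). The last had an input density of 30.8 reads per kb, below the chromosome 19 median of 58.2, as did the island at 804601 to 807800, which had 2.13-fold (1.63 to 2.80) at 26.6 input reads per kb. Among the 10 highest folds were also the islands at 45976401 to 45979800 (2.01-fold), 41731401 to 41734200 (2.00-fold), 2462801 to 2463600 (2.03-fold) and 33883201 to 33883800 (1.99-fold). All 10 were called above input by the exact binomial test, with adjusted p from 1.75e-39 to 0.0284. Over all 70, input density was a median 52.4 reads per kb and IP density 74.7, against 58.9 and 61.2 in the 420 islands that were not significant.

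**Figure D2:**
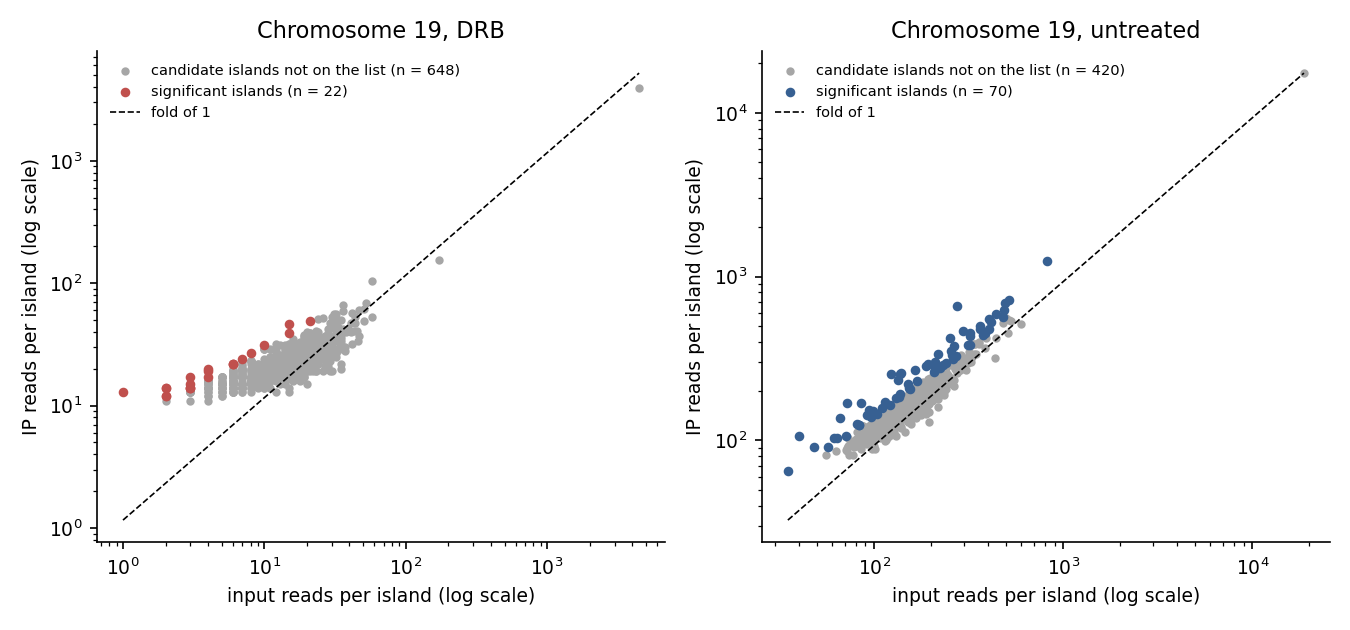
IP reads against input reads of each chromosome 19 candidate island on log scales, DRB left and untreated right, with significant islands in colour and a dashed line at a fold of 1. The significant DRB islands have 1 to 21 input reads, while the 70 untreated ones have a median of 190.

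Some significant untreated islands were wide or lay together. The widest, at 1248201 to 1262800 (14.6 kb), had 1252 IP and 823 input reads, 1.63-fold (1.49 to 1.78). The other 4 of the 5 widest were 8.4 to 9.8 kb, at 49374401 (1.502-fold), 54367001 (1.496-fold), 4057401 (1.45-fold) and 54377201 (1.69-fold). Of the 70, 20 lay within 20 kb of another and formed 9 groups. The largest group, from 13944001 to 13964400, held 4 islands with folds of 1.36 to 1.67 in 20.4 kb. With DRB, 1 such pair was found, between 16599401 and 16604200, so the 22 DRB islands were mostly solitary. The DRB list is shorter, with a median gap of 1140 kb between neighbours, against 410.8 kb in untreated cells. The 2 counts are therefore not directly comparable.

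The excess of significant untreated islands was in the wider classes. Of the islands over 4 kb on chromosome 19, 37 of 107 were significant (34.6%, interval 25.6 to 44.4), against 927 of 23908 on the other nuclear chromosomes (3.88%, interval 3.64 to 4.13). Of the islands up to 4 kb, 33 of 383 were significant (8.62%, interval 6.005 to 11.9), against 976 of 14297 elsewhere (6.83%, interval 6.42 to 7.25). Candidates over 4 kb were rarer on chromosome 19, 21.8% of its islands against 62.6% elsewhere. Chromosomes 2, 6, 14, 16, 17 and 20 hold most candidates, and HepG2 is known to carry extra copies of them or of parts of them. Without them and Y, 445 of 7450 wide islands of the other chromosomes were significant (5.97%, interval 5.45 to 6.53). With DRB, 0 of the 22 wide islands of chromosome 19 were significant, against 107 of 6475 elsewhere (1.65%), a difference not detectable with so few islands. The split at 4 kb was set after the width classes were seen.

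**Figure D3:**
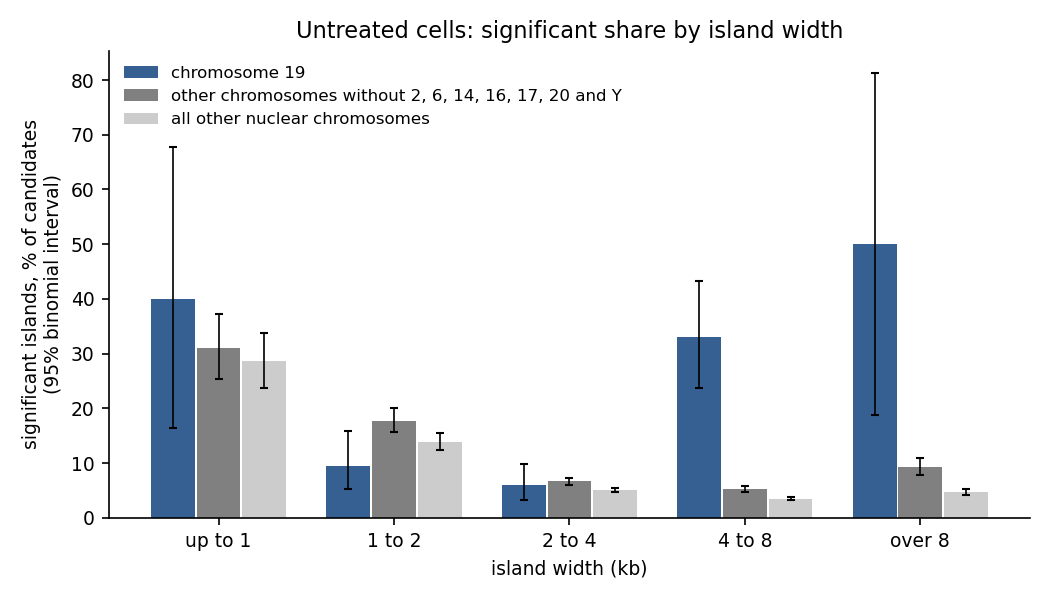
Share of untreated candidate islands that are significant, by island width, for chromosome 19, for the other chromosomes without 2, 6, 14, 16, 17, 20 and Y, and for all other nuclear chromosomes, with exact 95% binomial intervals. The 4 to 8 kb class reaches 33.0% on chromosome 19 and 3.51% on all other nuclear chromosomes, while in the 2 to 4 kb class the intervals overlap at 6.03% and 5.04%.

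Summed over islands, the fold of chromosome 19 in untreated cells was above that of the other nuclear chromosomes pooled. It ranked 4 of 24 single chromosomes at 1.147, below X (1.729), 21 (1.154) and 22 (1.153). The interval of chromosome 19 (1.138 to 1.157) overlaps those of 21 (1.142 to 1.167) and 22 (1.139 to 1.167). With DRB the fold was below the pooled value when the pair beside the centromere was counted, and ranked 22 of 24. It was level with the pooled value when that pair alone was left out. With DRB the chromosome 19 fold was 1.12, against 1.28 on the other nuclear chromosomes, an odds ratio of 0.874 (0.856 to 0.893; exact conditional test, adjusted p = 7.80e-35). In untreated cells it was 1.15 against 1.06, an odds ratio of 1.08 (1.07 to 1.09; exact conditional test, adjusted p = 2.90e-75). The ratio of the 2 odds ratios, DRB over untreated, was 0.808 (0.790 to 0.827). Without the pair beside the centromere the DRB fold was 1.28 on chromosome 19 and 1.28 elsewhere, an odds ratio of 0.999 (0.974 to 1.02; exact conditional test, adjusted p = 0.933), and the untreated odds ratio was 1.11 (1.10 to 1.12). The ratio of the 2 odds ratios was then 0.897 (0.873 to 0.921). After removal, on every chromosome, of islands whose input density reached 5 times the median, the odds ratios were 0.964 (0.940 to 0.988) with DRB and 1.11 (1.10 to 1.12) in untreated cells. Against the other chromosomes without 2, 6, 14, 16, 17, 20 and Y, the DRB odds ratio with the pair counted was 0.805 (0.788 to 0.823). Those chromosomes had a DRB fold of 1.39, above the 1.28 of chromosome 19 without the pair. In untreated cells the odds ratio against them was 1.04 (1.03 to 1.05). The median input density on chromosome 19 was 8.33 reads per kb with DRB, against 7 over all candidates, and 58.2 in untreated cells, against 52.3, so it was higher on chromosome 19 in both conditions.

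In the zinc finger clusters candidates were sparser than on the rest of the chromosome, most of all in cluster 1. Over all clusters there were 8.47 candidates per Mb with DRB, against 12.2 on the rest, and 4.89 per Mb in untreated cells, against 9.26 on the rest. The clusters span 22.2% of the chromosome and held 111 of the 670 DRB candidates (16.6%) and 64 of the 490 untreated ones (13.1%). Cluster 1 had 2.08 per Mb with DRB and 0.833 in untreated cells, cluster 2 had 7 and 5.5, and cluster 3 had 13.8 and 7.78. Cluster 3 was therefore closest to the rest in density, denser than it with DRB and sparser in untreated cells. The rest includes the stretch over the centromere, which lowers its density.

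Of the 111 DRB islands in the clusters 3 were significant (2.70%, interval 0.561 to 7.70), against 19 of 559 on the rest (3.40%, interval 2.06 to 5.26). In untreated cells 7 of 64 were significant (10.9%, interval 4.51 to 21.2), against 63 of 426 (14.8%, interval 11.6 to 18.5). The intervals of clusters and rest overlap in each condition. Cluster 2 had no significant island, 0 of 14 with DRB and 0 of 11 in untreated cells, which allows shares of up to 21.4% and 27.3%.

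Cluster 1 held 10 DRB and 4 untreated candidates. Its significant DRB island, at 24285801 to 24286600, had 20 IP and 4 input reads, 4.30-fold (1.44 to 17.3). Of its 4 untreated candidates 2 were significant, at 24183601 to 24184200 with 106 IP and 40 input reads (2.84-fold, 1.96 to 4.2) and at 24321801 to 24324800 with 152 and 99 (1.65-fold, 1.27 to 2.14). The first of these had the highest untreated fold on the chromosome. The other 2 untreated candidates had 1.27-fold at 21264601 and 1.01-fold at 24539801. No candidate lay between 21592401 and 24183600 in either condition.

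In cluster 2 the highest fold with at least 10 input reads was 1.63 (0.911 to 3.01) at 38396401 to 38399000 with DRB, from 36 IP and 19 input reads. In untreated cells it was 1.39 (1.08 to 1.78) at 37328001 to 37330600, from 150 IP and 116 input reads. In cluster 3 the significant DRB islands were at 57858801 to 57860200, with 17 IP and 4 input reads (3.66-fold, 1.19 to 14.9), and at 57971001 to 57974000, with 31 and 10 (2.67-fold, 1.27 to 6.10). The 5 significant untreated islands of cluster 3 all lay between 54367001 and 55728800, with folds from 1.496 to 1.71, among 11 candidates there. The 9 candidates before that stretch and the 29 after it included none, and had folds of 0.88 to 1.34. The stretch was marked out after the values were seen, and both significant DRB islands lay after it.

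**Figure D4:**
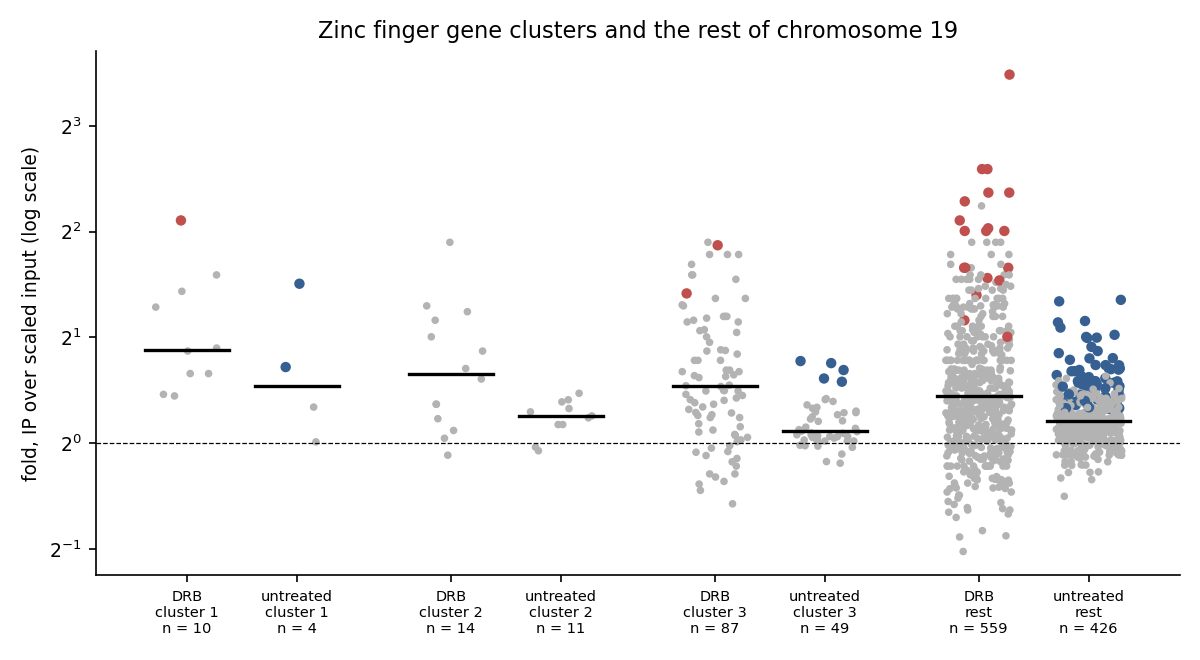
Fold of each candidate island (points, log scale) in the 3 zinc finger clusters and on the rest of chromosome 19, DRB left of untreated in each pair, with significant islands in colour and black bars at the medians. The medians of clusters 1, 2 and 3 are 1.85, 1.58 and 1.45 with DRB, against 1.36 on the rest, and 1.46, 1.20 and 1.08 in untreated cells, against 1.15 on the rest.

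Summed IP over input in the clusters was higher than on the rest with DRB, and the difference shrank with the choice of islands. With DRB the clusters had a fold of 1.38, against 1.09 on the rest, an odds ratio of 1.27 (1.19 to 1.36; exact conditional test, adjusted p = 1.36e-11 over 8 tests). In untreated cells the folds were 1.17 and 1.15, an odds ratio of 1.02 (0.990 to 1.05; exact conditional test, adjusted p = 0.292). Without the pair of islands beside the centromere the odds ratio was 1.10 (1.02 to 1.17; exact conditional test, adjusted p = 0.0364) with DRB and 0.985 (0.958 to 1.01; adjusted p = 0.316) in untreated cells. Without that pair and with at least 10 input reads per island the DRB odds ratio was 1.07 (0.992 to 1.15; exact conditional test, adjusted p = 0.190), so the call with DRB did not hold there.

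The input reads behind the islands moved with the DRB fold in clusters and rest alike. Islands with under 5 input reads had a median DRB fold of 3.44 in the clusters and 3.73 on the rest, and those with 20 or more had 0.997 and 1.00. Islands with under 5 input reads were 10.8% of the cluster islands and 5.37% of the rest. No DRB candidate on the chromosome had fewer than 11 IP reads, so a low input goes with a high fold by construction.

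Cluster 1 alone had the largest odds ratio against the rest, 1.70 (1.34 to 2.17; exact conditional test, adjusted p = 1.54e-05) with DRB and 1.15 (1.02 to 1.29; adjusted p = 0.0266) in untreated cells. Without the pair beside the centromere these were 1.47 (1.16 to 1.87; exact conditional test, adjusted p = 0.00975) with DRB and 1.11 (0.992 to 1.246; adjusted p = 0.183) in untreated cells. With at least 10 input reads per island as well, the DRB value was 1.33 (0.982 to 1.81; exact conditional test, adjusted p = 0.190) over 4 islands, so this call did not hold either. The DRB sum of cluster 1 rests on 226 IP and 105 input reads, of which 66 IP and 36 input reads were in the island at 24183601. For cluster 3 the odds ratio was 1.23 (1.14 to 1.32) with DRB and 1.01 (0.977 to 1.04) in untreated cells, and without the pair beside the centromere 1.06 (0.985 to 1.14) and 0.974 (0.945 to 1.00), neither of them called.

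Candidates of the 2 conditions overlapped in part. Of the DRB candidates on chromosome 19, 285 of 670 (42.5%, interval 38.8 to 46.4) lay over an untreated candidate by at least 1 bp, against 52.2% on the other chromosomes. Of the untreated candidates, 267 of 490 (54.5%, interval 50.0 to 59.0) lay over a DRB candidate, against 61.2% elsewhere. Of the 22 significant DRB islands 5 lay over any untreated candidate (22.7%, interval 7.82 to 45.4), against 19.9% on the other chromosomes. None of the 22 lay over any of the 70 significant untreated ones, which allows up to 13.6% of the DRB list and 4.29% of the untreated list. On the other chromosomes such overlaps were also rare, 35 of 3206 significant DRB islands (1.09%) and 35 of 1903 significant untreated ones (1.84%). DRB candidates lay over 28 of the 70 significant untreated islands (40.0%) and over 239 of the other 420 (56.9%), and on the other chromosomes over 52.7% of the significant untreated islands.

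Because island ends differed between the tables, islands with a reciprocal overlap of at least 50% were paired and compared directly. There were 162 such pairs on chromosome 19, with a median of 22.5 input reads with DRB and 154 in untreated cells. The median fold was 1.11 with DRB and 1.10 in untreated cells, and the DRB value was lower in 89 pairs and higher in 73. The median ratio of DRB over untreated fold was 0.982 (quartiles 0.803 and 1.21), against 1.12 over all 7547 pairs of the genome. The balance moved with the scaling: with both conditions centred on the summed reads of all nuclear candidates, the DRB value was lower in 120 of the 162 and the median ratio was 0.814, against 0.926 over all pairs.

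The exact conditional test of the 4 read counts, adjusted over all pairs of the genome, called 1 of the 162 pairs, the island beside the centromere at 27731801 (ratio 0.761, 0.725 to 0.798; adjusted p = 1.26e-26). The background was 0.928% of all pairs, 0.888% called lower with DRB and 0.0398% called higher. With any overlap of at least 1 bp, 2 of 267 pairs were called, both lower with DRB, where the background was 0.558% (0.465% lower and 0.0931% higher). At an unadjusted p under 0.05, 10 of the 162 pairs passed (6.17%), 8 of them lower with DRB, against 437 of all 7547 pairs (5.79%), 207 of them lower with DRB. The share on chromosome 19 was thus near the background. The next lowest p was at 18388801, the steepest untreated island outside the clusters, where DRB gave 43 IP and 33 input reads over 18390601 to 18394000, 1.12-fold (0.696 to 1.82), against 2.56-fold in untreated cells. The ratio was 0.438 (0.266 to 0.729; exact conditional test, adjusted p = 0.123). With the centred scaling its ratio was 0.364 and it passed (exact conditional test, adjusted p = 0.00598), as 1 of 2 pairs called, both lower with DRB, where the background was 2.2% (2.19% lower and 0.0133% higher).

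In all 10 pairs whose untreated island was significant the DRB fold was lower, with medians of 1.07 with DRB and 1.59 in untreated cells. Their untreated folds chose these islands, so this is a description. Of all 490 untreated candidates 54.5% lay over a DRB candidate, and of the 70 significant ones 40.0%. Of the 10 steepest untreated islands 7 had no DRB candidate and 3 had one. Besides 18388801, these were 24183601, with 66 IP and 36 input reads with DRB (1.58-fold, 1.04 to 2.44) against 2.84-fold in untreated cells, and 36066401, with 104 and 58 (1.54-fold, 1.11 to 2.17) against 2.23-fold. Input density in this last pair of islands fell by little with the lower depth of the DRB libraries: untreated over DRB it was 1.11 at 24183601 and 1.14 at 36066401, the lowest of the 162 pairs, whose median was 6.53. Both were narrow, 600 and 400 bp, with the same ends in each condition.

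**Figure D5:**
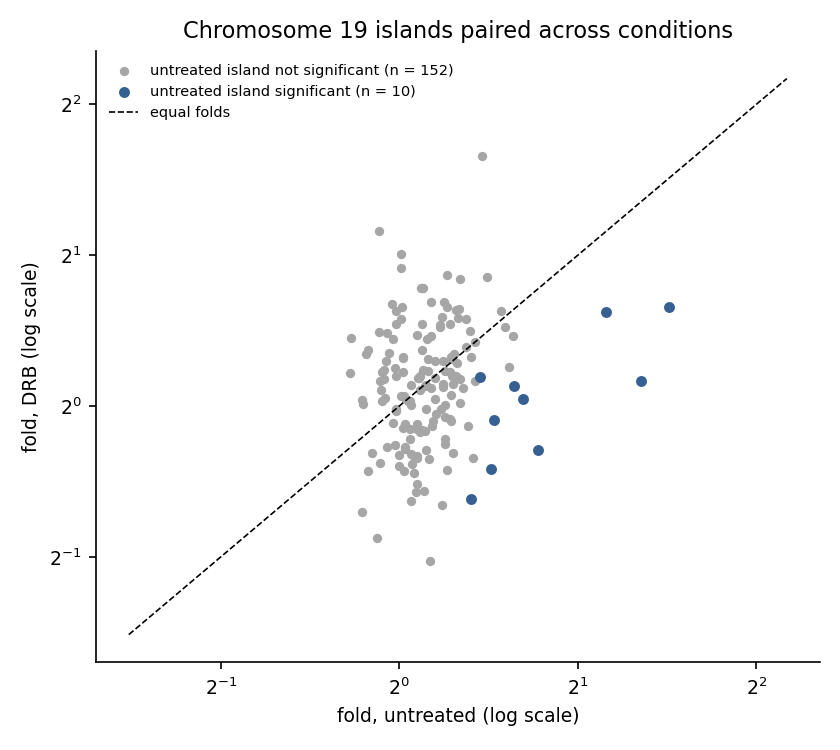
DRB fold against untreated fold of the 162 chromosome 19 island pairs that cover each other by at least 50%, on log scales, with the line of equal folds. All 10 pairs with a significant untreated island lie under the line, and the other 152 scatter on both sides, 79 of them under it.

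Of the untreated islands 76 of 490 (15.5%) had a fold below 1, against 23.6% of all untreated candidates, and 2 were called below input. The lowest folds with at least 50 input reads were 0.706 (0.561 to 0.886) at 18302601 to 18305200, with 129 IP and 196 input reads, and 0.788 (0.680 to 0.912) at 40560401 to 40567600, with 320 and 436. Both passed the exact binomial test below input (adjusted p = 0.0466 and 0.0315), where the background was 0.0853%. The next lowest, 0.796 at 5902801, did not pass (exact binomial test, adjusted p = 0.196). With DRB the 2 lowest were the pair beside the centromere, followed by 0.786 (0.532 to 1.16) at 1268801 to 1271400, with 53 IP and 58 input reads.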

How the data were processed

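Per the submitters' processing notes, reads were handled with FastQC 0.11.5, Bowtie 1.1.2 and SICER on hg19. How SICER was set and how the untreated replicates were combined is not given in the sources used here. The deposited counts are whole IP and input reads per candidate island, not normalized. The deposited p-value and FDR of each island and the deposited fold, a ratio of IP to input reads times 1 constant per table, are the authors' values. The significant lists held exactly the islands with an FDR under 1e-04. Files have no headers, so column meanings were checked on the values. Whether the 2 untreated replicates were separate cultures is not stated, so tests measure counting error of pooled libraries.

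Positions were made 1-based. Tests were the exact binomial test (two-sided, null share from the authors' constant) and the exact conditional test of 4 read counts (Fisher's noncentral hypergeometric distribution, two-sided), with Benjamini-Hochberg adjustment over the whole table, all pairs, 8 cluster tests or 2 chromosome tests. Differences between conditions of 2 odds ratios of summed reads used a normal interval of the log ratio. Tests were tested on simulated data. Intervals are Clopper-Pearson or exact conditional, cover counting error only, and take reads as independent. Limits for a count of 0 use 3 counts.

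The rule for named islands took, on chromosome 19, the 10 highest folds and 5 widest of the untreated list, the 5 highest folds of the DRB list, the 10 lowest binomial p, the 3 highest folds with at least 10 input reads in each cluster, the 3 lowest folds with at least 50 input reads and the 5 highest input densities; the significant islands of the clusters were named in addition, after their values were seen. The members, the comparisons and these rules were chosen with earlier results of these data known. Alternatives were other FDR, input, width and overlap limits, another scaling, and leaving out islands of high input density. Scripts ran under SciPy 1.17.1, pandas 2.3.3 and numpy 2.4.6 in Python 3.11.15, with figures from matplotlib 3.10.9.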

Additional observations from a re-analysis of the deposited data

Results flagged for a closer look

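Each result here is a difference between DRB-treated and untreated cells in the same contrast, by a test of that difference on summed reads or on the reads of a paired island. The summed reads come from islands called separately in each condition, which are not the same sites. The clusters held 111 DRB and 64 untreated candidates, the rest 559 and 426, and 42.5% of DRB candidates lay over an untreated one. The fewest IP reads of a chromosome 19 candidate were 11 with DRB and 65 in untreated cells. The summed ratios therefore cannot tell a change at shared sites from a difference in the islands called.

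The odds ratio of the zinc finger clusters against the rest of chromosome 19, DRB over untreated, was 1.246 (1.16 to 1.34). For cluster 1 it was 1.48 (1.14 to 1.92), for cluster 2 1.27 (1.03 to 1.56) and for cluster 3 1.22 (1.13 to 1.32). Without the pair of islands beside the centromere the value over all clusters was 1.11 (1.03 to 1.20), that of cluster 1 was 1.32 (1.02 to 1.71) and that of cluster 3 was 1.09 (1.01 to 1.18), while cluster 2 was no longer called at 1.13 (0.919 to 1.39). With at least 10 input reads per island as well, none was called after adjustment, at 1.09 (1.00 to 1.18) over all clusters, 1.20 (0.872 to 1.64) in cluster 1, 1.07 (0.843 to 1.34) in cluster 2 and 1.08 (0.993 to 1.18) in cluster 3. At islands paired by reciprocal overlap, the median ratio of DRB over untreated fold was the same in the pooled clusters and the rest. It was 0.982 over the 25 cluster pairs and 0.982 over the 137 pairs of the rest, and 0.814 in both with the centred scaling. The single clusters differed, with 1.06 over 2 pairs in cluster 1, 0.962 over 3 in cluster 2 and 1.06 over 20 in cluster 3. With the centred scaling these were 0.878, 0.797 and 0.882. The cause of this difference between summed and paired islands was not tested. For chromosome 19 against the other nuclear chromosomes the ratio was 0.808 (0.790 to 0.827), 0.866 (0.843 to 0.889) without islands of high input density, and 0.897 (0.873 to 0.921) without the pair beside the centromere. At the island starting at 27731801 the DRB over untreated fold was 0.761 (0.725 to 0.798).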

How the results depend on the processing

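No paired analysis was possible because the untreated replicates are pooled in the files and DRB has 1 library of each kind; for the same reason no replicate could be left out. The 70 significant untreated islands became 25 by the binomial test at 1e-04. The 22 DRB islands became 7 at a 10 times lower FDR, 4 with at least 10 input reads, and 0 by the binomial test at 0.05 or 1e-04. The cause of these changes was not tested. The clusters' DRB odds ratio of 1.27 lost its call at 1.09 without islands of high input density and at 1.07 without the pair beside the centromere and with at least 10 input reads (adjusted p from 1.36e-11 to 0.190 over all settings); the ratio between conditions, 1.246, lost it at 1.09 in the last setting. The untreated odds ratio of 1.02 turned to 0.985 without islands of high input density, without the pair beside the centromere, and with the 10-read limit as well, and in these settings clusters 2 and 3 turned to 0.9997 and 0.974; none of these was called. The single paired island that differed became 2 with any overlap or the centred scaling and 0 without islands of high input density, which removes it. The settings that drop the pair, and those for the differences between conditions, were chosen after the data were seen. The DRB odds ratio of chromosome 19 against the other chromosomes, 0.874, lost its call at 0.999 without the pair beside the centromere, a removal on chromosome 19 only. It kept its call at 0.964 without islands of high input density on every chromosome (exact conditional test, adjusted p = 0.00374). The untreated odds ratio and the ratio between conditions kept direction and call in the settings run. The DRB input, a median of 14 reads per island on chromosome 19, limits every DRB fold.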
